A study of Mus musculus with 6 samples.

Results

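The 45 genes described here encode proteins that copy DNA in S phase and that carry cells from G2 through mitosis. They were chosen by name from textbook cell cycle genes, with earlier results of these data known. Each was found by matching the Ensembl identifier of its row, without version, to its GENCODE M21 symbol. All 45 were present, each as 1 of the 55335 rows of the count table, and all 45 were among the 15687 genes with enough counts to be tested. The counts came from total RNA of bone marrow-derived macrophages (BMDMs), which are macrophages grown from the bone marrow of C57BL/6 mice in medium conditioned by L929 cells, a source of the growth factor M-CSF. In 3 libraries the cells had been given PBS and in 3 libraries LPS, a bacterial cell wall component that activates Toll-like receptor 4, and all were collected after 1 h. Both groups carried the same C57BL/6 genotype with no altered allele. The labels number the replicates 1 to 3 in each group and call the same numbers batches. Nothing in the sources says whether the replicates came from separate mice, so p-values measure the spread between these libraries, which may be technical. The dose of LPS was not given in the sources used here.

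Replication begins when origin recognition proteins, CDC6 and CDT1 load the MCM helicase in G1. Cyclin E with CDK2 and factors of the E2F family then start S phase, in which PCNA holds the polymerases on the template and ribonucleotide reductase supplies nucleotides. Entry into mitosis needs cyclin B with CDK1, and exit needs the anaphase-promoting complex (APC/C), a ubiquitin ligase. Bone marrow progenitors divide in M-CSF and divide less as they mature into macrophages, and LPS is known to arrest the division of macrophages grown in M-CSF. The transcripts of S phase genes are driven largely by E2F sites in their promoters, and those of mitotic genes by a CHR element (cell cycle genes homology region) together with CCAAT boxes.

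Library totals ranged from 37787611 to 41516330 counts. Levels are given as CPM, which are counts brought to a common library size after scaling each library with a TMM factor. The factor was about 1.15 in the PBS libraries and 0.864 to 0.872 in the LPS libraries. This scaling matters for small differences: deposited counts of most members were lower in the LPS libraries before it, and scaling by library size alone would shift the median log2 fold change of all tested genes by -0.40. The 6 LPS-induced genes used as a check of the labels all rose past both criteria, by a log2 fold change of 4.79 (Nfkbia) to 12.11 (Ptgs2). All 12 macrophage markers were detected, with a summed level of 33888 ± 684 CPM in PBS and 39846 ± 200 CPM in LPS (SD, n = 3).

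After 1 h of LPS, most members sat slightly lower than in PBS and a few rose, Mki67 and E2f8 by far the most. Genes were counted as changed past both criteria at a Benjamini-Hochberg adjusted p under 0.05 over all tested genes (edgeR's quasi-likelihood test) with a difference above 2-fold. By this rule, 2 of 45 members rose (4.44%, against 10.5% of all tested genes), namely Mki67 and E2f8, and 0 fell (against 10.4%). The 0 held in edgeR, DESeq2 and limma voom. The lowest log2 fold change in edgeR was -0.91 (Ccne1), so 0 members lay more than 2-fold lower at any p. The 0 did not hold under other scalings: library size alone gave 6 members that fell past both criteria, and upper quartile scaling gave 1 (Ccne1). By the adjusted p at any size of difference, 6 members rose (13.3%, against 32.9%): Mki67, E2f8, Plk4, Aurka, E2f1 and Pcna. By the same rule 30 fell (66.7%, against 34.9%), with log2 fold changes from -0.91 (Ccne1) to -0.12 (Rrm1) and a median of -0.38. In either direction 36 of 45 passed, against 67.7% of tested genes, and 4.44% passed both criteria, against 20.9%. The remaining 9 did not pass: Cdc25c, Ube2c, Mcm4, Tyms, Cenpe, Cenpf, Kif23, Nusap1 and Tpx2.

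The median log2 fold change of the 45 members was -0.31, a difference of -19.1%, beside a median of -0.01 over all tested genes. Every LPS library lay below every PBS library for 31 members (68.9%, against 36.6% of tested genes) and above it for 6 (13.3%, against 33.9%), and the groups overlapped for the other 8. Within same-numbered pairs of libraries, 41 members moved in 1 direction in all 3 pairs, including the 30 called lower and the 6 called higher. Where the groups do not overlap, this is given in advance. The share over all tested genes was not counted, so the 41 cannot be read as a trait of the members. Replicates lay close together, with a median coefficient of variation of 5.63% in PBS and 6.69% in LPS. The exception was Cdc25c, the member with the lowest counts (a mean of 40.7 per library), whose PBS libraries varied by 26.7%. These are bulk samples, so fewer cycling cells and less RNA of these genes per cell cannot be told apart.

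**Figure D1:**
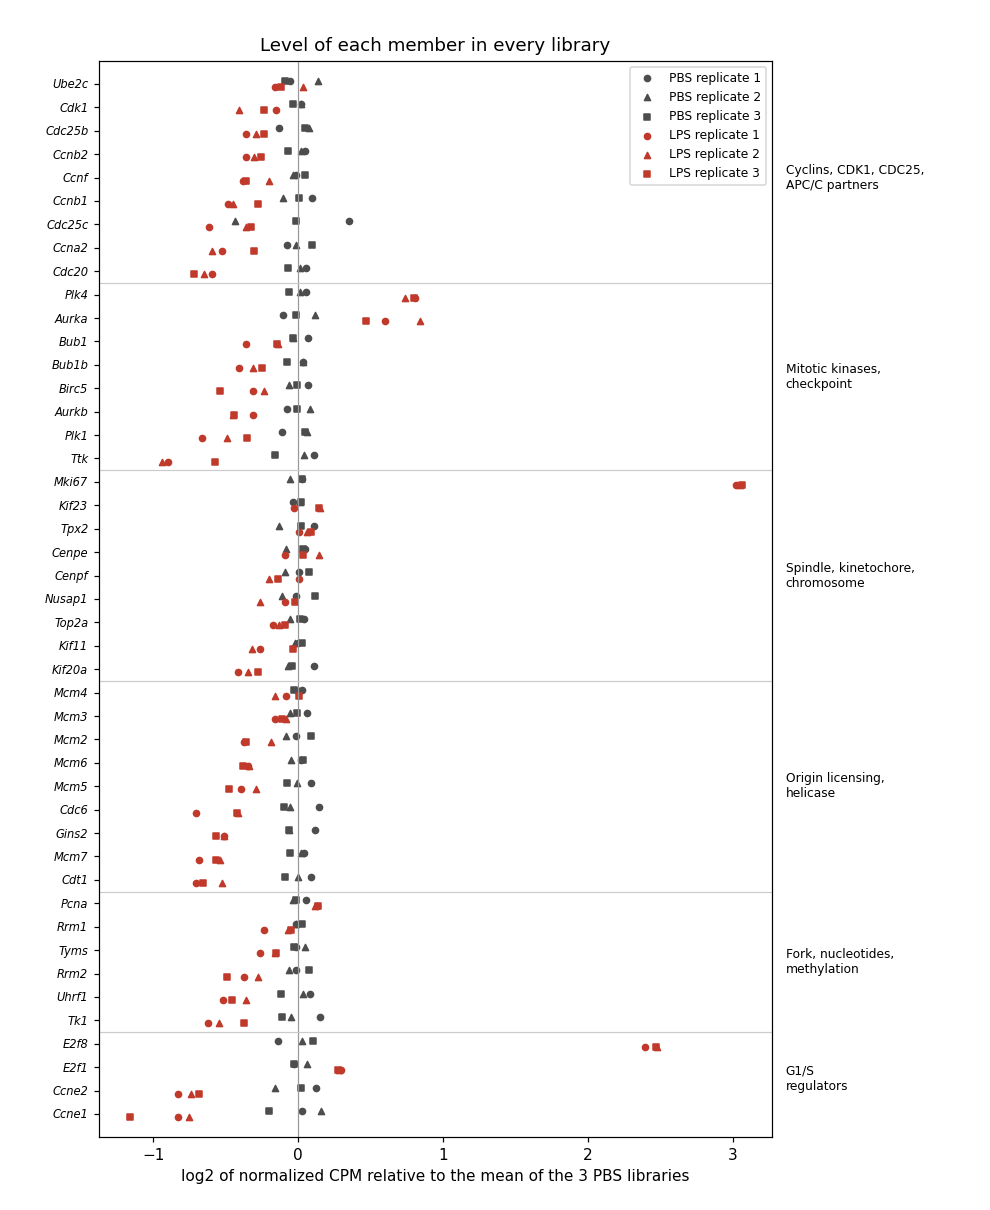
Level of each of the 45 members in every library, grouped by role. The x axis is log2 of normalized CPM relative to the mean of the 3 PBS libraries, grey marks are PBS and red marks LPS, and the shape gives the replicate number. Most red marks lie between 0 and -1, while those of Mki67 and E2f8 lie near 3 and 2.5 apart from all others.

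Mki67 encodes Ki-67, a coat protein of mitotic chromosomes that is used in pathology as a mark of dividing cells. It lies on the minus strand of chromosome 7 (chr7:135689784-135716361, GRCm38). In PBS it had 4138, 3710 and 4003 counts, and in LPS 23201, 22977 and 24188. Its level was 85.3 ± 2.72 CPM in PBS and 702 ± 9.83 CPM in LPS (SD, n = 3), a log2 fold change of 3.04 (SE 0.04, edgeR adjusted p = 1.97e-21) or 8.23-fold. The LPS libraries stood far above the PBS libraries and nearly level with each other. Among all 15687 tested genes this was the difference of rank 485 from the highest. Mki67 made up 8.08% to 8.41% of the counts of all members in the PBS libraries and 43.8% to 44.1% in the LPS libraries.

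The rise of Mki67 kept its direction under every scaling tried, and its ratio to another member of the same library, which needs no scaling, rose as well. Top2a, the topoisomerase that untangles sister chromatids, served as the denominator. It was chosen after values were seen and itself fell slightly (log2 fold change -0.13), so the ratio shows a change relative to Top2a only. The ratio of Mki67 to Top2a counts was 1.25, 1.26 and 1.27 in PBS and 11.6, 11.4 and 11.2 in LPS. Of the genes beside Mki67, Ptpre (a receptor-type tyrosine phosphatase), on the opposite strand, ends 3490 bp from the 3′ end of Mki67 and had a log2 fold change of 0.88 (SE 0.03, adjusted p = 6.18e-14). On the other side, Mgmt, a DNA repair gene, lies 1178252 bp away and showed 0.08 (SE 0.09, adjusted p = 0.452).

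E2f8 encodes an atypical E2F factor that represses E2F targets late in S phase. It lies on the minus strand of the same chromosome (chr7:48866429-48881596). Its counts were 269, 286 and 309 in PBS and 1098, 1128 and 1175 in LPS, again with a wide gap between the groups. The level rose from 6.23 ± 0.532 to 33.9 ± 1.05 CPM, a log2 fold change of 2.45 (SE 0.07, adjusted p = 3.61e-16) or 5.45-fold. Its ratio to E2f1, an activating E2F, was 0.459, 0.484 and 0.545 in PBS and 2.12, 2.26 and 2.27 in LPS. Per kilobase of merged exon, E2f8 went from rank 39 of the members to rank 9, and Mki67 from rank 7 to rank 2. Exons of Gm2788 on the opposite strand cover 11.2% of the exonic bases of E2f8, but Gm2788 held only 23 to 41 counts per library.

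The sequences upstream of these members are shown because they alone passed both criteria. They are the 250 bases before the RefSeq transcription start on GRCm38.p6, both on the minus strand and written 5′ to 3′ in the direction of transcription. Capitals mark matches to CHR (TTTGAA), the CCAAT box (CCAAT) and E2F (TTGGCGC or TTCGCGC) in either orientation, so that CHR can read TTCAAA and the CCAAT box ATTGG.
Mki67, chr7:135716380-135716629: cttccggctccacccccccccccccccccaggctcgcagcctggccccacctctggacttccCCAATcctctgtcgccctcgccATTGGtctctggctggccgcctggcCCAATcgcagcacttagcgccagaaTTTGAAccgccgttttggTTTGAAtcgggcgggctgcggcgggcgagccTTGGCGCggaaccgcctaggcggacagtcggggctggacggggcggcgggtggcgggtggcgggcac
E2f8, chr7:48881597-48881846: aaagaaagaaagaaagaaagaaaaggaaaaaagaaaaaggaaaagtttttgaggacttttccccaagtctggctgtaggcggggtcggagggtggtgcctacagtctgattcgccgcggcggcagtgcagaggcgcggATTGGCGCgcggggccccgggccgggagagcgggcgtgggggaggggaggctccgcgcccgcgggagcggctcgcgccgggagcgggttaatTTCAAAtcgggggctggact
The upstream sequence of Mki67 holds CHR matches starting 116 and 98 bases before the start, 3 CCAAT boxes and an E2F match at 67 bases. That of E2f8 holds a CHR match at 20 bases and an E2F match at 111 bases, which overlaps a CCAAT box.

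Plk4 and Aurka were the other members with a rise that kept its direction under every scaling tried. PLK4 is the kinase that starts centriole duplication and Aurora A, the product of Aurka, is the kinase of centrosomes and spindle poles. The 3 PBS libraries had 11.4, 11.1 and 10.5 CPM of Plk4 and the 3 LPS libraries 19.3, 18.4 and 19.2 CPM, a log2 fold change of 0.78 (SE 0.06, adjusted p = 3.48e-09). Aurka went from 4.85, 5.67 and 5.16 CPM to 7.90, 9.38 and 7.23 CPM, with a log2 fold change of 0.64 (SE 0.10, adjusted p = 2.81e-05). The groups did not overlap in either gene, though Aurka varied more among its LPS libraries. Relatives of both kinases went the other way: Plk1, the kinase of mitotic entry, had a log2 fold change of -0.49 (SE 0.12, adjusted p = 0.00197) and Aurkb, of the chromosomal passenger complex, -0.40 (SE 0.08, adjusted p = 0.000233). The count ratio of Plk4 to Plk1 was 3.54, 3.06 and 2.93 in PBS and 8.74, 7.40 and 7.03 in LPS. That of Aurka to Aurkb was 0.489, 0.511 and 0.495 in PBS and 0.936, 1.22 and 0.939 in LPS. Both denominators were chosen after values were seen and had fallen, so a rise of these ratios was given in advance.

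E2f1 and Pcna rose by small amounts that rest on the scaling. E2f1 had 12.3, 13.1 and 12.3 CPM in PBS and 15.4, 15.3 and 15.2 CPM in LPS (log2 fold change 0.28, SE 0.06, adjusted p = 5.84e-04). Pcna, the member with the highest level per kilobase in both groups, had 236, 222 and 225 CPM in PBS and 249, 247 and 250 CPM in LPS (log2 fold change 0.13, SE 0.03, adjusted p = 0.00269). With library size alone the log2 fold changes were -0.12 for E2f1 and -0.28 for Pcna, and with upper quartile scaling 0.14 and -0.02. Against Mcm6, a helicase subunit that fell, the count ratio of Pcna was 3.06, 3.01 and 2.88 in PBS and 4.14, 4.09 and 4.26 in LPS. Because Mcm6 fell, this ratio would rise even with Pcna unchanged, so it does not show a rise of Pcna itself.

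**Figure D2:**
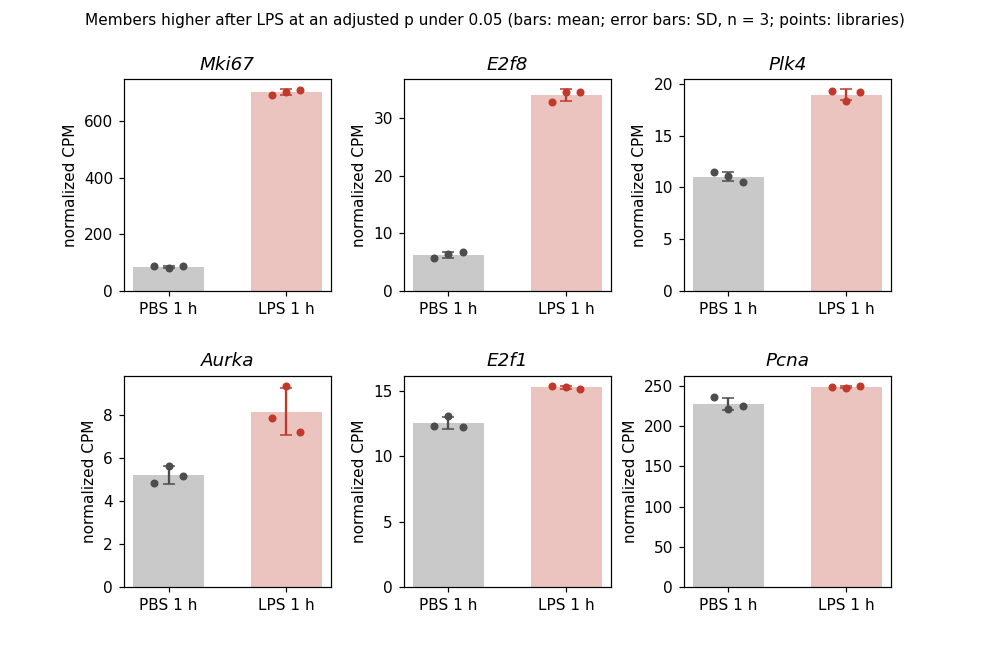
Normalized CPM of the 6 members that rose at an adjusted p under 0.05, in PBS (grey) and LPS (red) at 1 h, with bars for the mean, error bars for the SD (n = 3) and points for libraries. Each y axis starts at 0 and has its own scale, and the 3 LPS points lie above the 3 PBS points in all 6 panels, by the widest ratio in Mki67 (85.3 to 702 CPM) and the narrowest in Pcna.

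Among the G1/S regulators, both E-type cyclins fell while both E2F members rose, E2f1 by a small amount that rests on the scaling. Ccne1 and Ccne2 encode the partners of CDK2 that trigger S phase. Ccne1 had the largest fall of any member, from 185, 192 and 153 counts to 72, 74 and 58, or 3.82 ± 0.471 to 2.04 ± 0.296 CPM (log2 fold change -0.91, SE 0.14, adjusted p = 1.92e-05). The fold was 1.87, and no LPS library reached the lowest PBS library. Ccne2 followed at -0.75 (SE 0.12, adjusted p = 1.58e-05). Relative to E2f1, Ccne1 counts were 0.316, 0.325 and 0.270 in PBS and 0.139, 0.148 and 0.112 in LPS. The pair was chosen after values were seen, so the fall of this ratio was given in advance.

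Of the 9 members that load or form the replicative helicase, 8 fell, 0 rose and Mcm4 did not pass, with a group median of -0.39. The counts of each role group stand beside 34.9% of all tested genes that fell and 32.9% that rose. Cdt1, the loading factor that geminin restrains, fell from 33.2, 31.1 and 29.2 CPM to 19.1, 21.7 and 19.8 CPM (log2 fold change -0.63, SE 0.06, adjusted p = 4.02e-08). Mcm7 fell by a similar amount (-0.60, SE 0.06, adjusted p = 2.95e-08), and Gins2 and Cdc6 followed at -0.53 and -0.51. The helicase subunits did not move by equal amounts, although they work as a ring with 1 copy of each: Mcm7 was followed by Mcm5 at -0.39, Mcm6 at -0.35, Mcm2 at -0.31 and Mcm3 at -0.12. Mcm6 had the highest level per kilobase of the group and went from 77.2, 73.7 and 77.9 CPM to 60.0, 60.4 and 58.7 CPM. Mcm4 had 36.2, 35.5 and 34.7 CPM in PBS and 33.4, 31.7 and 35.5 CPM in LPS, so that its groups overlapped (log2 fold change -0.08, SE 0.05, adjusted p = 0.154). The call of Mcm3 was lost with DESeq2, with its size factors and without LPS replicate 1 or PBS replicate 1.

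Of the 6 members that act at the fork, supply nucleotides or maintain methylation, 4 fell, Pcna rose and Tyms did not pass. Of all tested genes, 34.9% fell and 32.9% rose. Tk1, the thymidine salvage kinase of S phase, fell most, from 7.94, 6.93 and 6.61 CPM to 4.65, 4.90 and 5.52 CPM (log2 fold change -0.51, SE 0.10, adjusted p = 2.37e-04). Uhrf1, which guides DNMT1 to newly copied DNA, followed at -0.44 (SE 0.06, adjusted p = 6.59e-06). The subunits of ribonucleotide reductase differed in size: Rrm2, whose product is present mainly in S phase, had -0.38 (SE 0.08) and Rrm1, whose product is longer lived, had -0.12 (SE 0.05, adjusted p = 0.0367). The call of Rrm1 was lost with DESeq2, with its size factors and without LPS replicate 1, PBS replicate 1 or PBS replicate 3. Tyms, the thymidylate synthase gene, was lower in each LPS library than in any PBS library, at 4.83 ± 0.209 against 5.52 ± 0.153 CPM, but its adjusted p was 0.0772.

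The 9 mitotic cyclins, CDK1, CDC25 phosphatases and partners of the APC/C held 7 falls, 0 rises and a median of -0.31. Over all tested genes the shares were 34.9% falls and 32.9% rises. Cdc20, which activates the APC/C in anaphase, fell most, from 325, 300 and 289 counts to 146, 137 and 136 (log2 fold change -0.65, SE 0.09, adjusted p = 7.17e-06). The cyclin genes Ccna2 (-0.47), Ccnb1 (-0.40), Ccnf (-0.31) and Ccnb2 (-0.31) all fell, as did the kinase gene Cdk1 (-0.26). Cdc25b, a phosphatase that activates CDK1 and the member of this group with the highest level per kilobase, went from 18.9, 21.7 and 21.3 CPM to 16.1, 16.8 and 17.5 CPM (log2 fold change -0.30, SE 0.06, adjusted p = 5.62e-04). Its relative Cdc25c had 69, 38 and 52 counts in PBS and 25, 29 and 31 in LPS, and the difference of -0.43 (SE 0.23) did not pass (adjusted p = 0.109), though it did without PBS replicate 2 (-0.60). Ube2c, which feeds ubiquitin to the APC/C, had 3.11, 3.54 and 3.03 CPM in PBS and 2.89, 3.31 and 2.97 CPM in LPS, a difference within the spread of the libraries (-0.08, SE 0.12, adjusted p = 0.578).

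Of the 8 mitotic kinase and checkpoint members, all but Plk4 and Aurka fell. Beside them, 34.9% of all tested genes fell and 32.9% rose. Ttk, the checkpoint kinase MPS1, fell most, from 148, 134 and 119 counts to 52, 49 and 66, or 2.88 ± 0.274 to 1.66 ± 0.24 CPM (log2 fold change -0.79, SE 0.15, adjusted p = 1.22e-04). Bub1b, which encodes BUBR1 of the checkpoint complex and had the highest level per kilobase of these genes, went from 18.8, 18.9 and 17.5 CPM to 13.9, 14.8 and 15.5 CPM (-0.32, SE 0.06, adjusted p = 1.93e-04). Birc5, which encodes survivin, the partner of Aurora B, showed -0.36 (SE 0.10, adjusted p = 0.00479). The fall of Bub1 (-0.21, SE 0.09, adjusted p = 0.0449) was the least firm: it lost its call with DESeq2, with its size factors and in 4 of the 6 fits that left out a library (without LPS replicate 1 or any of the PBS replicates).

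The 9 members of the spindle, kinetochore and mitotic chromosome moved least, apart from Mki67. Of these 9, 3 fell and 1 rose, beside 34.9% and 32.9% of all tested genes. The share of falls was near that of all genes. Kif20a, a kinesin of cytokinesis, fell from 11.7, 10.3 and 10.5 CPM to 8.13, 8.52 and 8.93 CPM (-0.35, SE 0.08, adjusted p = 7.94e-04), and 29.3% of its exonic bases lie opposite exons of Cdc23, which itself had -0.93. Kif11, the kinesin that separates spindle poles, showed -0.20 (SE 0.07, adjusted p = 0.017), a call lost with DESeq2 and without LPS replicate 1 or 2, and Top2a showed -0.13 (SE 0.04, adjusted p = 0.00657). Cenpe, Cenpf, Kif23, Nusap1 and Tpx2 did not pass, with log2 fold changes from -0.12 to 0.09 and overlapping groups. For Cenpe, Kif23 and Tpx2, whose values lay just above 0, the sign turned under upper quartile scaling and under library size alone.

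**Figure D3:**
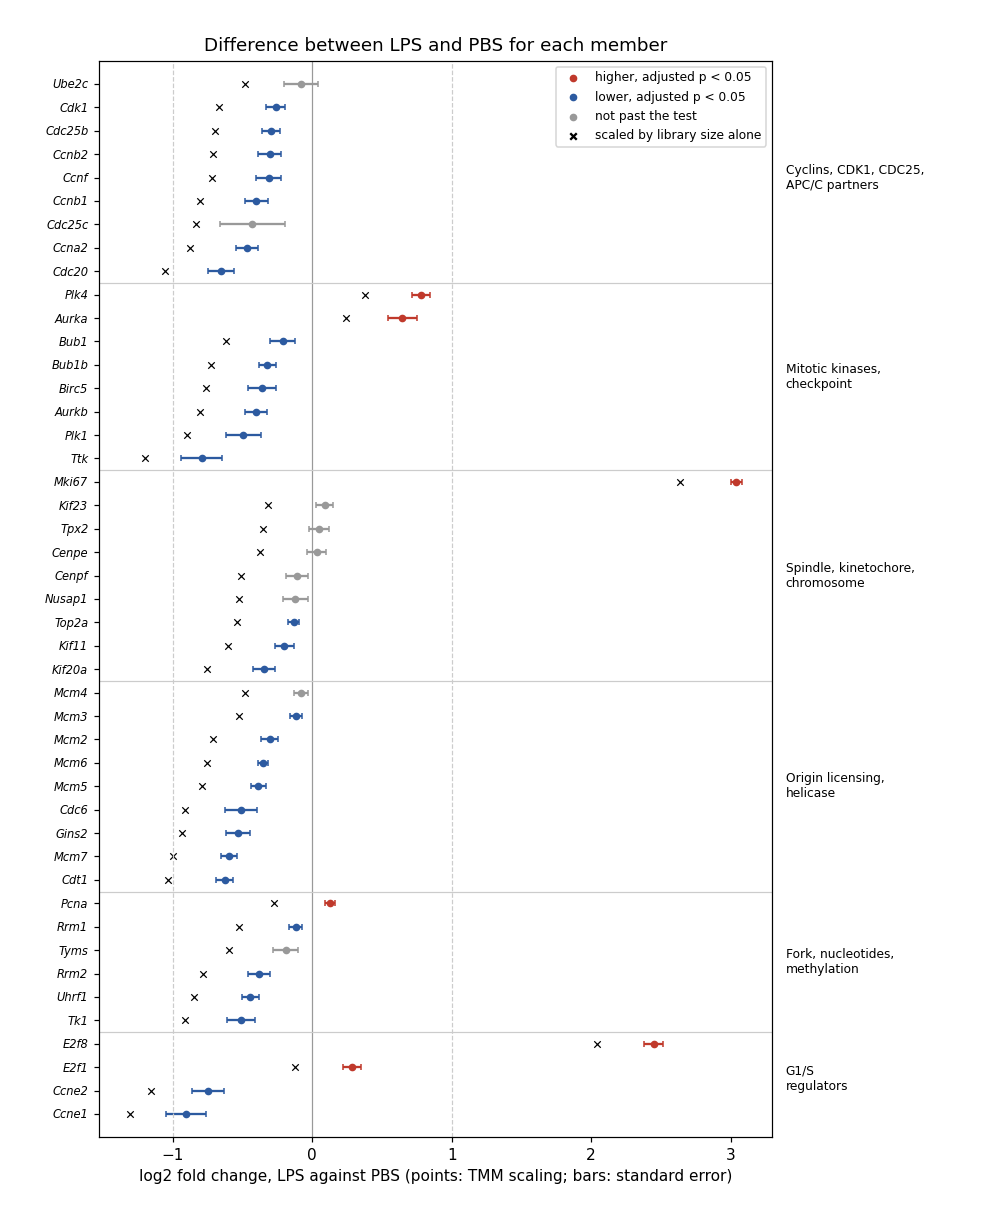
Log2 fold change of each member between LPS and PBS, by role, with points for TMM scaling, bars for the SE and crosses for library size alone. Red points rose and blue points fell at an adjusted p under 0.05, grey points did not pass, and dashed lines mark 2-fold. The crosses lie about 0.40 to the left of the points, which takes E2f1 and Pcna below 0 and leaves Mki67, E2f8, Plk4 and Aurka above it.

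Exons of 13 members overlap exons of a gene on the opposite strand, and the strand setting of the counting was not given, so their values are less certain. The overlap is widest in Gins2, where Gse1 covers 67.3% of the exonic bases, and Gse1 had a log2 fold change of 0.28 while Gins2 fell. It is 22.8% in Ube2c, opposite Tnnc2, which had 0 counts in every library. It is 17.4% in Ccne2, opposite Ints8 (0.28), 12.7% in Cdc25c, opposite Gm3550, which had at most 2 counts in any library, and 12.5% in Ccna2, opposite Exosc9 (-0.02, adjusted p = 0.775). In the remaining members it was under 8%, except for Kif20a and E2f8 described above. Among the partners with under 8%, Ap4m1 (opposite Mcm7, -0.78), Oip5 (opposite Nusap1, -0.67), Spef1 (opposite Cdc25b, -0.47) and Elovl1 (opposite Cdc20, -0.11) fell. Cops6 (also opposite Mcm7, 0.08) and Afmid (opposite Tk1, -0.09) did not pass, and Gm44985, opposite Plk1, had 0 counts in every library. Mcm7 also hosts Mir25 and Mir93 on its own strand.

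Promoter windows of 300 bases, from 250 before to 50 after the RefSeq start (GRCm38.p6), were given for 37 of the 45 members, as 39 windows because Mcm7 and Uhrf1 have 2. Those of Aurkb, Ccna2, Ccne2, Cdc25c, Gins2, Kif20a, Mcm4 and Tpx2 were not used here. On either strand, CHR (TTTGAA) was found in 16 of 39 member windows (41.0%), in 12.5% of the windows of all tested genes and in 17.9% of all 32851 windows. The CCAAT box was found in 30 member windows (76.9%), in 37.7% of the windows of tested genes and in 37.4% of all windows. E2F (TTGGCGC or TTCGCGC) was found in 10 member windows (25.6%), in 6.61% of those of tested genes and in 3.89% of all. The CHR matches lay mostly in the mitotic role groups, with 14 of 21 windows (66.7%), and the E2F matches were in 3 of those windows (14.3%). In the replication and G1/S groups the order was the other way, with CHR in 2 of 18 windows (11.1%) and E2F in 7 (38.9%). Matches overlapped in 11 pairs in the member windows. A match is a run of letters and was not tested as a binding site.

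**Figure D4:**
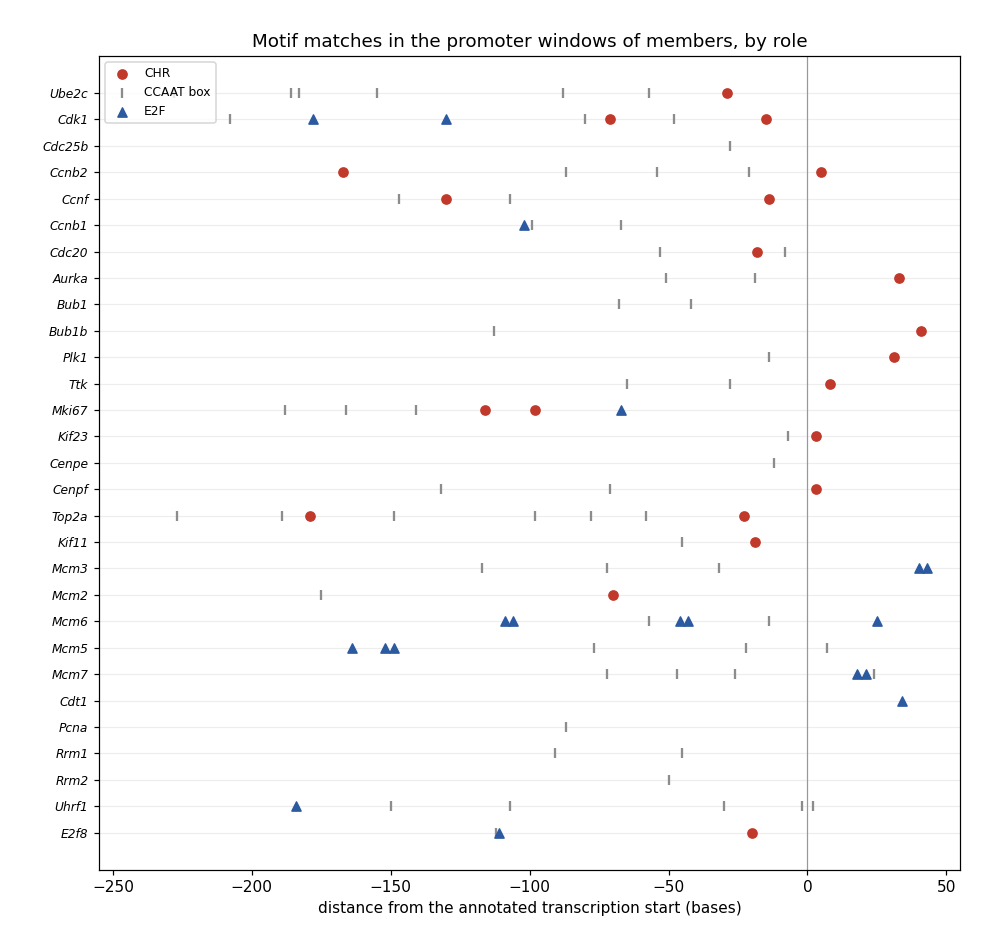
Matches to CHR (red circles), the CCAAT box (grey ticks) and E2F (blue triangles) in the promoter windows of the members that hold any, ordered by role from mitotic at the top to G1/S at the bottom. The x axis is the distance from the annotated transcription start in bases, and the windows of Mcm7 and Uhrf1 are drawn on 1 line each. Most CHR matches of the upper rows lie near the start, whereas E2F matches are more frequent in the rows of the helicase genes.

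CHR matches are shown for the 8 members with the largest differences among those that hold one, to set risers beside genes that fell. Each line is 30 bases of GRCm38.p6 on the gene's own strand, 5′ to 3′, with the match in capitals, which reads TTCAAA where it lies in the reverse orientation.
Mki67, chr7:135716460-135716489, minus strand: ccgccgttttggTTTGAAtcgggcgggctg
E2f8, chr7:48881599-48881628, minus strand: gagcgggttaatTTCAAAtcgggggctgga
Ttk, chr9:83834684-83834713, plus strand: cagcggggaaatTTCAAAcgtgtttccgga
Cdc20, chr4:118437344-118437373, minus strand: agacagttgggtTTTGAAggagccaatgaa
Aurka, chr2:172370521-172370550, minus strand: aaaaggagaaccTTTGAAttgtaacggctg
Plk1, chr7:122159453-122159482, plus strand: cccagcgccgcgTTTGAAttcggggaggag
Bub1b, chr2:118598231-118598260, plus strand: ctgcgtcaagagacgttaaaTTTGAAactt
Ccnf, chr17:24251406-24251435, minus strand: gctcccggcgcgTTTGAAaacggggcgggg
Of these, Mki67, E2f8 and Aurka rose and Ttk, Cdc20, Plk1, Bub1b and Ccnf fell. For E2F, the 6 members with the largest differences are shown in the same way.
Mki67, chr7:135716428-135716457, minus strand: gcgggcgagccTTGGCGCggaaccgcctag
E2f8, chr7:48881689-48881718, minus strand: agaggcgcggaTTGGCGCgcggggccccgg
Cdt1, chr8:122568035-122568064, plus strand: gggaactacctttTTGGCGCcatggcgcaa
Mcm7, chr5:138171848-138171877, minus strand: ggtgacgacgtTTCGCGCcaatttcggttg
Uhrf1, chr17:56304118-56304147, plus strand: ccgagtcgggtTTCGCGCgcccaggcgtct
Ccnb1, chr13:100786570-100786599, minus strand: gggaacccgcgGCGCCAAtgggaagagagc
Of these, Mki67 and E2f8 rose and Cdt1, Mcm7, Uhrf1 and Ccnb1 fell, and the match of Ccnb1 is in the reverse orientation.

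Summed over the 45 members, the level was 1036 ± 22.4 CPM in PBS and 1597 ± 25.5 CPM in LPS, yet without Mki67 it was 951 ± 20.4 and 895 ± 15.9 CPM. The summed level thus moved up or down according to whether that gene was counted. By role, the sum went from 284 ± 8.16 to 225 ± 5.23 CPM for origin licensing and helicase genes, and from 89.2 ± 0.843 to 70.0 ± 2.55 CPM for the mitotic cyclins and their partners. It was 64.5 ± 1.72 and 64.6 ± 1.07 CPM for the mitotic kinases and checkpoint, in which Plk4 and Aurka rose and the others fell, and 326 ± 9.06 and 332 ± 4.69 CPM for the fork and nucleotide genes, most of it Pcna. It went up from 27.4 ± 0.495 to 54.1 ± 1.04 CPM for the G1/S regulators, with E2f8, and from 245 ± 8.24 to 852 ± 15.0 CPM for the spindle and chromosome genes, with Mki67. Per kilobase, the members spanned a wide range in PBS, from 0.232 CPM for Cdc25c through a median of 2.72 to 94.8 for Pcna.

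Other genes of the same pathways, taken from lists of names, also held mostly small falls with a few rises. These lists too were chosen with earlier results of these data known, so they are no independent check. Of 80 other G2/M and mitosis genes, 55 fell and 8 rose by the adjusted p, against 34.9% and 32.9% of all tested genes. The other 17 did not pass, and the median log2 fold change was -0.35. Past both criteria, 4 rose and 4 fell, smaller shares than the 10.5% and 10.4% of all tested genes. The counts were 1 and 19 with library size alone and 4 and 7 with upper quartile scaling. The largest rises were Ckap2l (1.82), a spindle protein, Cks2 (1.39), which binds CDK1, Hmgb2 (1.38), a chromatin protein, and Lmnb1 (1.23), of the nuclear lamina. Where the mean count reached 50, the largest falls were Ska2 (-1.80) and Cenpk (-1.12), of the kinetochore, Sgo1 (-1.04), which guards cohesin, and Psrc1 (-0.97). Of the transcription factors of the mitotic programme, Mybl2 fell (-0.50, SE 0.14, adjusted p = 0.00488), while Foxm1 had -0.14 (SE 0.14, adjusted p = 0.401) and passed the test as a fall with library size alone (-0.54, adjusted p = 0.00192).

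Of 72 other replication and repair genes, 60 fell (against 34.9% of all tested genes), 4 rose (against 32.9%) and 8 did not pass. Their median was -0.41. Past both criteria 7 fell and 2 rose, against 10.4% and 10.5% of all tested genes. Falls of that size were thus no more frequent than over all tested genes. The counts were 20 and 1 with library size alone and 11 and 1 with upper quartile scaling. Gins3, a helicase cofactor like Gins2, fell by 2.15 on the log2 scale (SE 0.14, adjusted p = 3.14e-10). Cdca7 (-2.01), Dtl (-1.16), an adaptor for the destruction of CDT1, and Orc5 (-1.16), of the origin recognition complex, also fell by more than 2-fold. Chaf1b, a histone chaperone of the fork, rose from 10.3 ± 0.649 to 32.9 ± 1.76 CPM (1.68), followed by Donson (1.06), Orc1 (0.69) and Blm (0.39), the last of which turned below 0 with library size alone.

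Regulators upstream of S phase moved in both directions. Of 21 G1 cyclins, kinases and E2F factors, 11 fell, 6 rose and 4 did not pass, beside 34.9% and 32.9% of all tested genes that fell and rose, so that the share of rises was near that of all genes. With library size alone 18 fell and 2 rose. Myc rose from 4.52 ± 0.267 to 54.3 ± 1.71 CPM (log2 fold change 3.58, SE 0.06, adjusted p = 2.21e-19), and the D-type cyclin Ccnd2 rose (1.55) while Ccnd1 fell (-0.45). E2f5 (0.40) and E2f4 (0.25), E2Fs of the repressor kind, rose by small amounts that turned below 0 with library size alone. Skp2, which marks the inhibitor p27 for destruction, fell by 1.94, and Cdc25a (-1.17), E2f2 (-0.89) and E2f6 (-0.79) fell as well.

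The list of cell cycle inhibitors and pocket proteins held more rises than falls, 14 against 8 of 26 tested and 28 listed. It also holds other regulators, such as the p53 antagonist Mdm2 and the APC/C inhibitor gene Fbxo5. Of all tested genes 32.9% rose and 34.9% fell. In the list 4 genes did not pass, and with library size alone 9 rose and 14 fell. The median of the list was 0.26. Past both criteria 9 rose and 1 fell, against 10.5% and 10.4% of all tested genes. Cdkn1a, which encodes the CDK inhibitor p21, went from 21.6 ± 2.41 to 341 ± 3.61 CPM (3.99, SE 0.06, adjusted p = 2.05e-20). The antiproliferative gene Btg2 (2.85), the DREAM complex subunit Lin54 (2.63), which binds CHR, and the p53 antagonist Mdm2 (2.59) followed. Fbxo5, which encodes the APC/C inhibitor EMI1, fell from 6.45 ± 0.522 to 1.32 ± 0.178 CPM (-2.29), and the DREAM subunits Lin9 (-0.56) and Lin52 (-0.48), the CDK1 inhibitor Wee1 (-0.54) and Cdkn1b (-0.21) also fell. Of 16 APC/C subunits and partners, 7 fell (against 34.9% of all tested genes), 3 rose (against 32.9%) and 6 did not pass. Past both criteria there were 0, against 20.9% of all tested genes. With library size alone 14 of these subunits fell, 0 rose and 2 fell past both criteria. Their largest differences were Cdc23 (-0.93), Anapc16 (-0.79), Cdc26 (-0.57) and Anapc15 (-0.39) on the lower side and Cdc27 (0.49), Anapc2 (0.39) and Ube2s (0.26) on the higher, of which Anapc2 and Ube2s turned below 0 with library size alone.

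**Figure D5:**
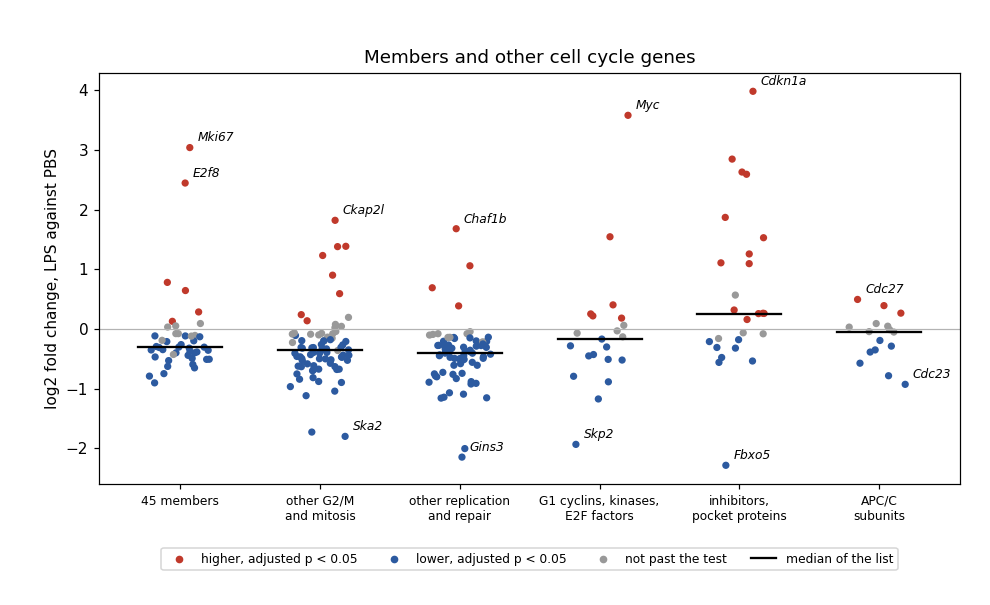
Log2 fold change between LPS and PBS of the 45 members and of 5 lists of other cell cycle genes, 1 point per tested gene and a black line for the median. Red points rose and blue points fell at an adjusted p under 0.05, and grey points did not pass. The medians of the members (-0.31) and of the other G2/M and replication genes (-0.35 and -0.41) lie below 0. That of the inhibitors and pocket proteins (0.26) lies above it, by less than the shift of -0.40 that library size alone gives.

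Markers of other cells that a marrow culture can hold were scarce beside those of macrophages, and several moved with LPS. The 8 progenitor markers summed to 10.9 to 12.7 CPM in the PBS libraries and 21.8 to 23.0 CPM in the LPS libraries, and of the 6 tested 3 rose (Gata2 by 4.68, Flt3 by 1.63 and Kit by 0.75) and 1 fell (Meis1, -0.48), while Cd34 had 0.17 (adjusted p = 0.64). The 11 granulocyte markers summed to 45.5 to 49.6 and 59.9 to 64.0 CPM, with Ly6g at or under 3 counts in each library. The 6 dendritic cell markers summed to 5.38 to 6.61 and 12.1 to 12.6 CPM and 5 of them rose. Of the other lists, 9 T and NK cell markers summed to 23.0 ± 1.05 and 32.4 ± 0.236 CPM, of which Cd4 alone made up 21.2 and 30.4 CPM. The 8 stromal markers summed to 15.9 ± 0.614 and 19.8 ± 1.51 CPM, and 7 B cell markers to 3.31 ± 0.214 and 3.50 ± 0.35 CPM. The 6 mast cell and basophil markers summed to 2.84 ± 0.129 and 4.37 ± 0.243 CPM and the 9 erythroid markers to 0.798 ± 0.138 and 1.14 ± 0.382 CPM, with 2 and 5 of them at or under 3 counts in each library. The mean of each of these sums was higher in LPS, and the part of these cells in the results was not tested.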

How the data were processed

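Total RNA libraries were made with a stranded kit and read on paired ends. Per the submitters' processing notes and the study's methods, the authors checked reads with FastQC 0.11.9, aligned them to GRCm38 with HISAT2 2.1.0, handled the alignments with SAMtools 1.17 and assigned reads to genes with featureCounts 2.0.0. The authors deposited whole-number counts without normalization. The annotation release, strand setting and treatment of reads with several matches were not given in the sources used here. Of the 55335 rows, 55154 matched GENCODE M21 without version.

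Groups and replicate numbers were taken from the labels. Genes were filtered with filterByExpr (15687 kept), scaled by TMM and tested with the quasi-likelihood test of edgeR 4.0.16 in R 4.3.3, adjusting p by Benjamini-Hochberg over the genes tested. The thresholds were an adjusted p of 0.05 and an absolute log2 fold change of 1. Exact permutation of 3 against 3 libraries could not reach p under 0.1. Counts at or under 3 were treated as the floor, for counting error only.

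The members and lists were chosen with earlier results of these data known. Values in every library are given for members past both criteria and, in each role group, for those with the highest level per kilobase and the highest and lowest log2 fold change. Aurka, the count ratios, neighbouring genes and members whose call changed were added after values were seen. Of the other lists, up to 4 genes per direction are named by size of change, with a mean of 50 or more counts and 1 direction in all 3 pairs, plus Ccnd1, Myc, Cdkn1a, Cdkn1b, Foxm1 and Mybl2.

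The labels give each replicate number as a batch, which pairs the libraries. Deviations from the group means of same-numbered libraries correlated by -0.0139, 0.0822 and 0.0387, and a fit with the replicate block stood beside the main one. Other alternatives were library size alone, upper quartile scaling, DESeq2's size factors, no filter, 10 counts in every library, DESeq2 1.42.0, limma voom (limma 3.58.1) and leaving out each library. The functions were tested on simulated data.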

Additional observations from a re-analysis of the deposited data

How the results depend on the processing

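The replicate block, limma voom and both other filters changed no call of a named gene and no count by over 1.5 times, and with the block the members gave the same counts (2 and 0 past both criteria, 6 and 30 by the adjusted p, median -0.31). Scaling decided most of what moved. With library size alone, members lower past both criteria were 6 and the members' median was -0.711. In that scaling, past both criteria, 1 of the other G2/M genes rose and 19 fell, 1 of the replication genes rose and 20 fell, 4 of the G1 genes fell and 2 of the APC/C subunits fell. By the adjusted p it gave 2 replication genes, 2 G1 genes, 9 genes of the inhibitor list and 0 APC/C subunits that rose. It also gave 18 G1 genes, 14 genes of the inhibitor list and 14 APC/C subunits that fell. The signs of Cenpe (-0.37), E2f1 (-0.12), Kif23 (-0.31), Pcna (-0.28), Tpx2 (-0.35), Anapc2 (-0.014), Blm (-0.018), E2f4 (-0.15), E2f5 (-0.00131) and Ube2s (-0.14) turned. With upper quartile scaling, members lower past both criteria were 1 and the median was -0.449, 7 of the G2/M genes and 11 of the replication genes fell and 1 replication gene rose past both criteria, 3 G1 genes rose by the adjusted p, and 1 APC/C subunit fell past both criteria. Under it Cenpe (-0.11), Kif23 (-0.052), Pcna (-0.015) and Tpx2 (-0.092) turned. Both scalings shift the median of all tested genes, by -0.40 and -0.14. Members lower by the adjusted p numbered 26 with DESeq2, 27 with its size factors, 35 with upper quartile scaling, 40 with library size alone and 26 to 31 when a library was left out, and members higher numbered 4 with library size alone or upper quartile scaling and 6 in all fits without a library. Leaving out a library turned Cenpe (without LPS replicate 2 or PBS replicate 2, range -0.027 to 0.087), Tpx2 (without PBS replicate 2, range -0.011 to 0.11) and Foxm1 (without LPS replicate 3 or PBS replicate 3, range -0.24 to 0.00634), of which none had passed the test. Mcm4 passed without LPS replicate 3 (-0.13).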
